A study of Homo sapiens with 6 samples.

Results

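KYSE-150, a line from an esophageal squamous cell carcinoma, was compared with HET-1A, a non-cancerous line of the esophageal epithelium immortalized with SV40 large T antigen, by the places where the Tn5 transposase could reach the DNA (ATAC-seq). The comparison used 4 of the 6 deposited peak lists: KYSE-150 libraries 7 and 8 with 547 and 259 peaks, and HET-1A libraries 1 and 2 with 168 and 15979. These lists held 16953 of the 29879 peaks of the series, 806 of them from KYSE-150. Peaks that shared at least 1 base were merged into 16540 regions, of which 741 had a KYSE-150 peak and 16097 a HET-1A peak. The series compares ATAC-seq libraries of esophageal cell lines, each prepared from 50000 cells, and its design text calls the libraries of a line biological replicates. HET-1A was kept in BEBM with the supplier's additives, whereas KYSE-150 was kept in RPMI/F12 with FBS and an antibiotic-antimycotic, so line and medium cannot be told apart. Each line stands for a single cell line, and no treatment was given to either.

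Open chromatin marks DNA that nucleosomes do not cover, mostly promoters and enhancers. Promoters of broadly expressed genes often carry sites for SP/KLF, ETS, NRF1 or NFY factors, whereas enhancers of epithelial and carcinoma cells are known for sites of AP-1, the FOS and JUN family of dimers that act below growth factor receptors such as EGFR. Pericentromeric and duplicated DNA also draws peaks in most ATAC-seq libraries, because reads from several copies can be placed on a single one.

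The sequences below show what stood under the KYSE-150 peaks that carry the comparison. RIC1 and KDM4C are single-copy promoters found in both KYSE-150 libraries. The RIC1 ETS match lay in the library 7 peak and outside the library 8 peak. KLF5 and POLR2A are promoters of a squamous factor and of an RNA polymerase subunit. SEMA3E and CHN2 give the AP-1 sites of introns open in KYSE-150 library 7 alone, and CDC27P1 an AP-1-like match near that pseudogene. An AP-1 site of a strong distal HET-1A peak (NRBF2P1) is set beside them. Each is a run of 30 bases of the hg19 reference genome, written 5′ to 3′ on the strand given, with the motif in capitals: CCGGAAG for ETS, GGGCGG for SP/KLF, GCATGCG for NRF1 and TGANTCA for AP-1.
RIC1 ETS, chr9:5628687-5628716, plus strand: accccgccaatCCGGAAGggaggtccaatt
RIC1 SP/KLF, chr9:5629020-5629049, plus strand: ggcctgaggaagGGGCGGggtcggggcggg
KDM4C AP-1, chr9:6757903-6757932, plus strand: gtaagcccacgTGACTCAccaagtgcgggc
KLF5 SP/KLF, chr13:73632922-73632951, minus strand: gcttcgcgcgcaGGGCGGccgcgcagtttg
POLR2A NRF1, chr17:7388105-7388134, minus strand: ggtgcgcagcggGCATGCGctgtcccccga
SEMA3E intron AP-1, chr7:83097780-83097809, plus strand: caggaatgtgcTGACTCActccttggctgt
CHN2 first intron AP-1, chr7:29325187-29325216, plus strand: caatgcagtgcTGACTCAtaccacacgcag
CDC27P1 AP-1, chr2:133031193-133031222, plus strand: ggtagtggtcgTGAATCAttctctggagtc
NRBF2P1 AP-1, chr18:33392023-33392052, plus strand: cattaggactcTGAGTCAtacatttcacag
The motif letters were searched on both strands in the 200 bp around each summit. A match is a description of the sequence and not a bound site.

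The lists differed first in length. No read counts were used here, but the fold enrichment and p-value of each peak give back the tags (reads, extended to 200 bp) at its summit and its local background, and the lowest background of a list is its genome-wide level. That level was 1.88 and 3.34 tags in HET-1A libraries 1 and 2, and 2.80 and 2.64 tags in KYSE-150 libraries 7 and 8. KYSE-150 thus had 0.837 and 0.788 times the background of HET-1A library 2, whose list was far longer. The weakest peaks rested on 10 and 12 tags in HET-1A and on 13 tags in both KYSE-150 libraries. Median fold enrichment was alike, at 4.66 and 4.22 in HET-1A and 4.07 and 4.20 in KYSE-150. HET-1A library 1 shared 47 of its 168 peaks (28.0%) with library 2, which stood apart from the other 3 lists by its length. A region without a peak is one where the summit did not pass the authors' threshold in that library, and its level there is not known. With 2 libraries per line, the smallest two-sided exact permutation p is 0.33, so no difference between the lines could pass a test at 0.05, and the gap between replicates is given beside each.

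The strongest KYSE-150 peaks were not particular to KYSE-150. Of the 20 peaks made by the 10 smallest p-values of each KYSE-150 library, all but those at the CDC27P1 promoter fell in regions with a peak in all 4 libraries. MIR663AHG, the long non-coding host transcript of a microRNA on chromosome 20 (chr20:26189810-26190362), led both lists with 475 and 579 summit tags, against 184 and 360 in HET-1A. Its fold enrichment was 15.1 in both KYSE-150 libraries and 13.2 and 15 in HET-1A, so the 4 values lay close together. RNA5-8SP6, a pseudogene of the 5.8S ribosomal RNA (chrY:10037671-10038003), reached a fold enrichment of 37.9 and 34.6 in KYSE-150 and 36.1 and 39.1 in HET-1A, again with overlapping groups. The RPL13AP15 pseudogene region, within an intron on chromosome 6, had 79 and 121 tags in KYSE-150 and 89 and 58 in HET-1A. PARN, which encodes a poly(A)-specific ribonuclease, had a first-intron peak with 70 and 79 tags in KYSE-150 and 54 and 39 in HET-1A (chr16:14580794-14581083). Its fold enrichment was 12.3 and 15.2 in KYSE-150 and 13.3 and 7.46 in HET-1A, with overlapping groups. Such regions, open in all 4 libraries, numbered 24, and 7 of them were promoters. Among the 5 leading peaks of each HET-1A list, 2 were not called in KYSE-150, at ENSG00000266401 on chromosome 18 with 387 tags and at PVT1, a long non-coding RNA next to MYC, with 313 tags, both in HET-1A library 2 alone. Their fold enrichment was 6.19 and 5.60, beside a local background 18.4 and 16.5 times the genome level.

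Below this top set, the KYSE-150 libraries shared few peaks with each other. Of the 547 peaks of library 7, 62 (11.3%) overlapped library 8, and 61 of the 259 peaks of library 8 (23.6%) overlapped library 7. The overlap with HET-1A library 2 was larger, at 248 peaks (45.3%) and 87 peaks (33.6%). List length bears on this: when each library gave only its 168 peaks with the smallest p-values, the length of the shortest list, 27.4% of library 7 overlapped library 8 and 7.74% overlapped HET-1A library 2. At that equal rank, 26.8% of library 8 overlapped library 7 and 6.55% overlapped HET-1A library 2. HET-1A library 1 took 16.1% of library 7 and 16.7% of library 8 at equal rank, more than its 5.36% overlap with HET-1A library 2. Which line a KYSE-150 peak resembled therefore changed with the length of the lists.

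**Figure D1:**
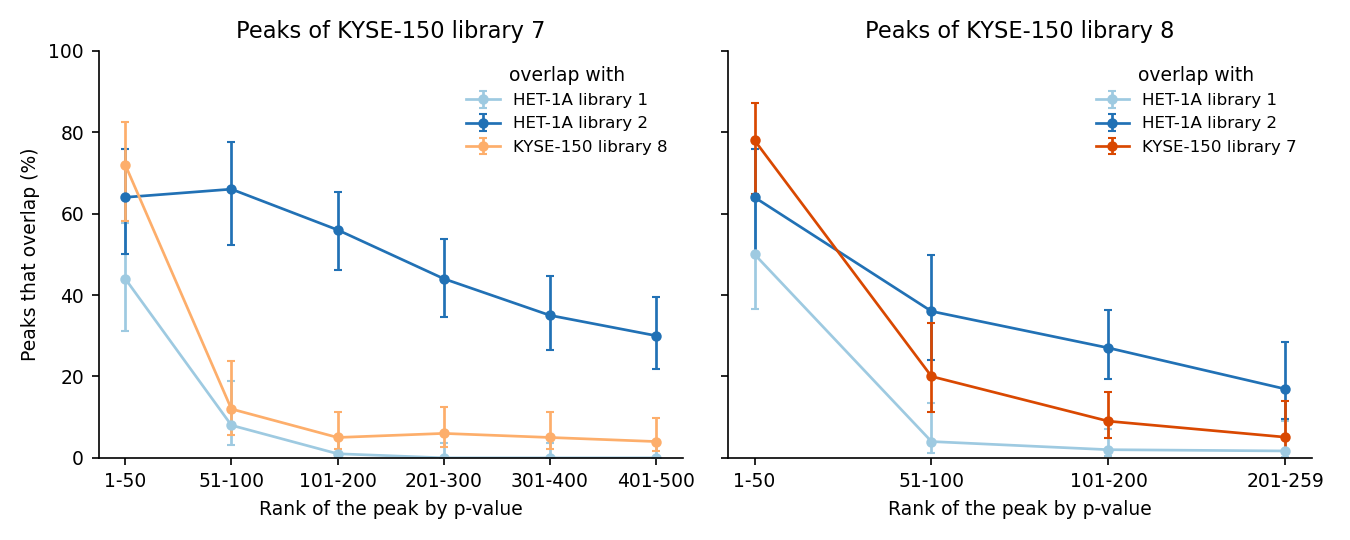
Share of KYSE-150 peaks (vertical axis, %) that overlap a peak of each other library, by the rank of the peak by p-value (horizontal axis), for library 7 (left) and library 8 (right), with 95% Wilson intervals as bars. Overlap between the KYSE-150 libraries fell from 72.0% and 78.0% in the first 50 peaks to 6 of 50 and 10 of 50 in the next, while overlap of library 7 with HET-1A library 2 was still 66.0% there.

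The first 50 peaks held most of the agreement between replicates. In library 7, 36 of the first 50 peaks (72.0%, Wilson 95% interval 58.3 to 82.5) overlapped library 8, but 6 of the next 50 (12.0%) and 5 of the 100 after that. In library 8, 39 of the first 50 (78.0%, 64.8 to 87.2) overlapped library 7, then 10 of 50. The first peaks of library 7 were more often in multi-copy DNA and less often promoters than those that followed. Its promoter share rose from 48.0% of peaks 1 to 50 to 76.0% of peaks 101 to 200, and the multi-copy share fell from 28.0% to 11%. A peak is called multi-copy here where more than 50% of the 31-base words around its summit occur elsewhere in hg19. These intervals cover counting error only.

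In all, 62 regions had a peak in both KYSE-150 libraries, and 30 of them (48.4%) were multi-copy. Of the 62, 40 also had a HET-1A library 2 peak and 17 had a peak in neither HET-1A library. An assembly gap of at least 50 kb marks centromeres and other unresolved DNA. Within 1 Mb of such a gap lay 41.9% of the 62 regions and 58.8% (36.0 to 78.4) of the 17. For the genome outside the gaps it was 10.2%. The reverse set, open in both HET-1A libraries alone, had 7 of 19 regions there (36.8%, 19.1 to 59.0). Its interval overlapped that of the 17, so nearness to gaps was not particular to KYSE-150. Over the full lists, library 8 had 33.2%, library 7 had 21.6%, HET-1A library 1 had 20.2% and HET-1A library 2 had 13.2%. The part of copy number of the sequence in the calls of the 62 and the 17 regions was not tested. Without HET-1A library 2 the 17 became 33, and with a single KYSE-150 library they became 167 (library 8) or 293 (library 7), so these counts rest on which libraries are asked to agree.

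In the full lists, the 17 regions were led by pseudogenes and repeated gene families rather than by single-copy genes. By mean fold enrichment the first was a region beside CDC27P2, a pseudogene of the anaphase-promoting complex subunit CDC27 (chrY:10025084-10025367), with 39 and 28 tags and a fold enrichment of 10.5 and 7.98 in libraries 7 and 8. An unnamed clone-based pseudogene at chr1:148009071-148010131 had 34 tags in both libraries. LINC01474, a long non-coding RNA gene with a peak just downstream (chr9:75455866-75456496), had 38 and 43 tags. The next 7 were ABC7-43041300I9.1, CR381653.1, GOLGA6D, CDC27P1, ENSG00000287345, AC004980.1 and SPATA31E3P, with mean fold enrichments of 5.40 down to 4.44. GOLGA6D belongs to the golgin family copied across chromosome 15. Of these 10 regions, 7 were multi-copy, all but CDC27P2, the chromosome 1 pseudogene and CDC27P1. Over all 17 regions, 12 (70.6%) were multi-copy, 7 were distal intergenic and 6 were promoters. This make-up changed with the length of the lists. At equal rank the set also counted 17 regions, of which 10 (58.8%) were promoters and 6 (35.3%) were multi-copy.

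The reverse set, open in both HET-1A libraries and in neither KYSE-150 library, held 19 regions, and none at equal rank. Its leaders by mean fold enrichment were RNA5S6, a 5S ribosomal RNA gene, with 21 and 34 tags, an intron of CD96, an immune receptor, with 28 and 22, then MIR3118-2, ENSG00000287886 and the promoter of the zinc finger gene ZNF7, with 17 and 32 tags. HET-1A library 1 limited this set, since without it 15683 regions of HET-1A library 2 had no KYSE-150 peak, and without HET-1A library 2 it held 135.

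The block of chromosome 2 around CDC27P1 and ANKRD30BL held more KYSE-150 peaks than any other gene neighbourhood by nearest start site. CDC27P1 was the nearest gene of 7 peaks in each KYSE-150 library and of 4 and 3 peaks in the HET-1A libraries. Its promoter peak (chr2:133018693-133019068) had 123 and 234 tags in KYSE-150 libraries 7 and 8 and 104 tags in HET-1A library 2. At ANKRD30BL, which encodes an ankyrin repeat protein, a multi-copy promoter region had 95 and 143 tags in KYSE-150 and no HET-1A peak. The local background of the CDC27P1 peaks was a median 5.83 and 9.26 times the genome level in libraries 7 and 8. MLLT10P1 on chromosome 20 followed with 4 and 3 peaks in KYSE-150 and 1 and 3 in HET-1A. RP11-435B5.7 on chromosome 1 had 3 and 1 and no HET-1A peak, MIR3118-6 on chromosome 15 had 3 and 1 against 0 and 2, and ENSG00000278932 on chromosome 21 had 2 and 3 against 1 and 3.

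Promoters made up more of the KYSE-150 lists than of the HET-1A lists on average, but by no more than replicates differed. A promoter peak lay within 3 kb of any annotated start site, those of shorter transcripts inside a gene included. The share in KYSE-150 was 64.5% (60.4 to 68.4) for library 7 and 47.5% (41.5 to 53.6) for library 8, against 26.8% (20.7 to 33.9) and 53.1% (52.3 to 53.9) in HET-1A libraries 1 and 2. The mean difference of 16.1 percentage points stood beside gaps of 17.0 points between the KYSE-150 libraries and 26.3 between the HET-1A libraries. Library 8 was below HET-1A library 2, so the groups overlapped. At equal rank the shares were 68.5% and 45.2% in KYSE-150 and 26.8% and 63.7% in HET-1A, a difference of 11.6 points.

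**Figure D2:**
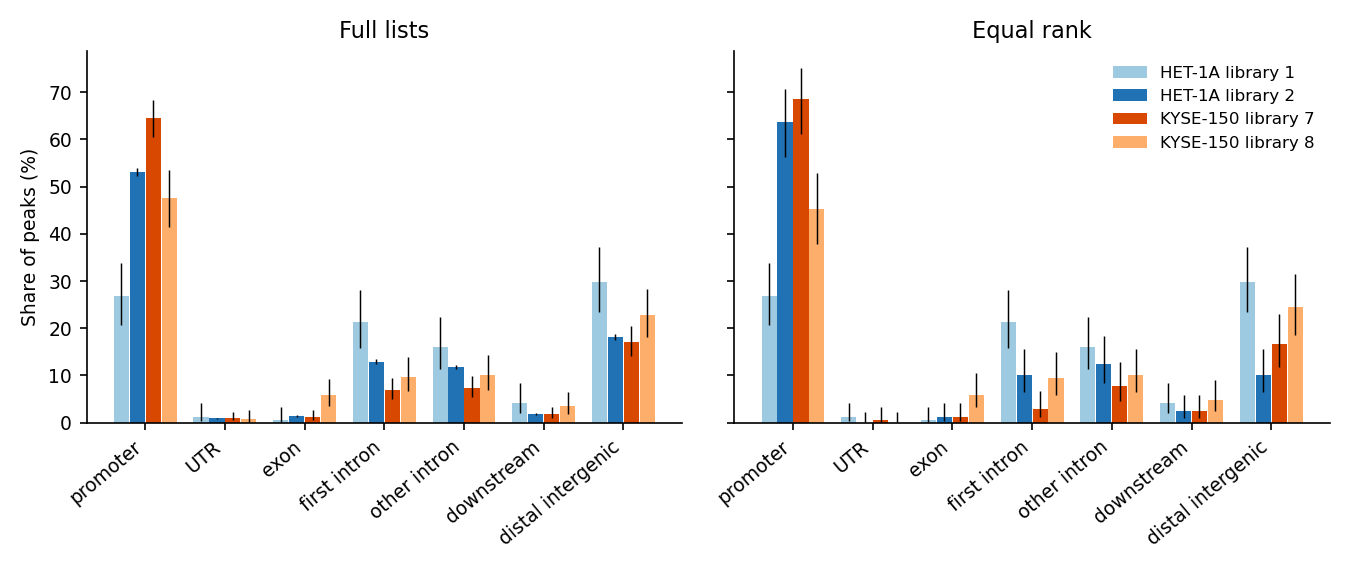
Share of peaks (vertical axis, %) in each annotation class (horizontal axis) for the 4 libraries, over the full lists (left) and the 168 peaks with the smallest p-values of each (right); black bars are 95% Wilson intervals. KYSE-150 library 7 and HET-1A library 2 were promoter-rich in both panels, KYSE-150 library 8 lay between, and HET-1A library 1 had the fewest promoters.

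Over the full lists and at equal rank, introns were the class in which both KYSE-150 libraries lay below both HET-1A libraries. First and later introns together held 14.3% of library 7 and 19.7% of library 8, against 37.5% and 24.6% in HET-1A. The mean intron share fell by 14.1 points from HET-1A to KYSE-150, and by 7.65 without HET-1A library 1. For first introns alone the difference was -8.84 points, beside gaps of 2.71 and 8.57 points between replicates, and -4.56 points without HET-1A library 1. At equal rank the intron shares were 10.7% and 19.6% in KYSE-150 and 37.5% and 22.6% in HET-1A, with the same order. Among the 144 leading single-copy peaks of each list, that order did not hold for later introns, nor for first and later introns together. Later introns held 13.2% (19 peaks) of library 8 and 11.8% (17 peaks) of HET-1A library 2. First introns held 9.03% (13 peaks) and 10.4% (15 peaks), so together introns were as frequent in library 8 as in HET-1A library 2. Distal intergenic peaks made up 17.0% and 22.8% of KYSE-150 and 29.8% and 18.1% of HET-1A, with overlapping groups, and the sign of the mean difference turned at equal rank, from -4.04 to 0.595 points. Exons held 5.79% of library 8 and 1.28% of library 7. Library 7 peaks also lay nearest to start sites, at a median 267 bp against 3354 bp in library 8 and 2298 bp in HET-1A library 2, and 36.2%, 10.8% and 31.1% of these peaks covered a start site. At equal rank the order of library 7 and HET-1A library 2 turned, with medians of 84.0 bp, 3940 bp and 0 bp and with 74, 20 and 88 of the 168 peaks covering a start site.

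What library 7 shared with HET-1A library 2 was mostly promoters. Of the 208 regions found in this pair alone, 183 (88.0%, 82.9 to 91.7) were promoters and 12 (5.77%) were multi-copy, whereas of the 40 regions also found in library 8, 18 were promoters. Of the 276 regions of library 7 alone, 142 (51.4%) were promoters. Library 8 had 42 regions shared with HET-1A library 2 alone, 30 of them promoters (71.4%), and 150 of its own, 62 of them promoters (41.3%) and 44 multi-copy (29.3%). Over whole lists, 30.9% (25.6 to 36.8) of library 8 and 14.6% (11.9 to 17.8) of library 7 were multi-copy, against 14.3% and 2.95% in HET-1A.

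Where a single-copy promoter was open in KYSE-150 and in HET-1A library 2, its level was similar. Over 188 such promoters of library 7, summit tags divided by the genome background of the library had a median of 7.50 in library 7 and 8.37 in HET-1A library 2, and library 7 was higher at 69. Over 36 of library 8, the medians were 9.48 and 9.57, and library 8 was higher at 22. Single-copy regions outside promoters had medians of 9.29 and 10.5 (library 7 and HET-1A library 2, 33 regions, library 7 higher at 21) and 14.4 and 12.0 (library 8 and HET-1A library 2, 22 regions, library 8 higher at 18). These values come from regions called in both libraries, so they say nothing of regions called in one.

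**Figure D3:**
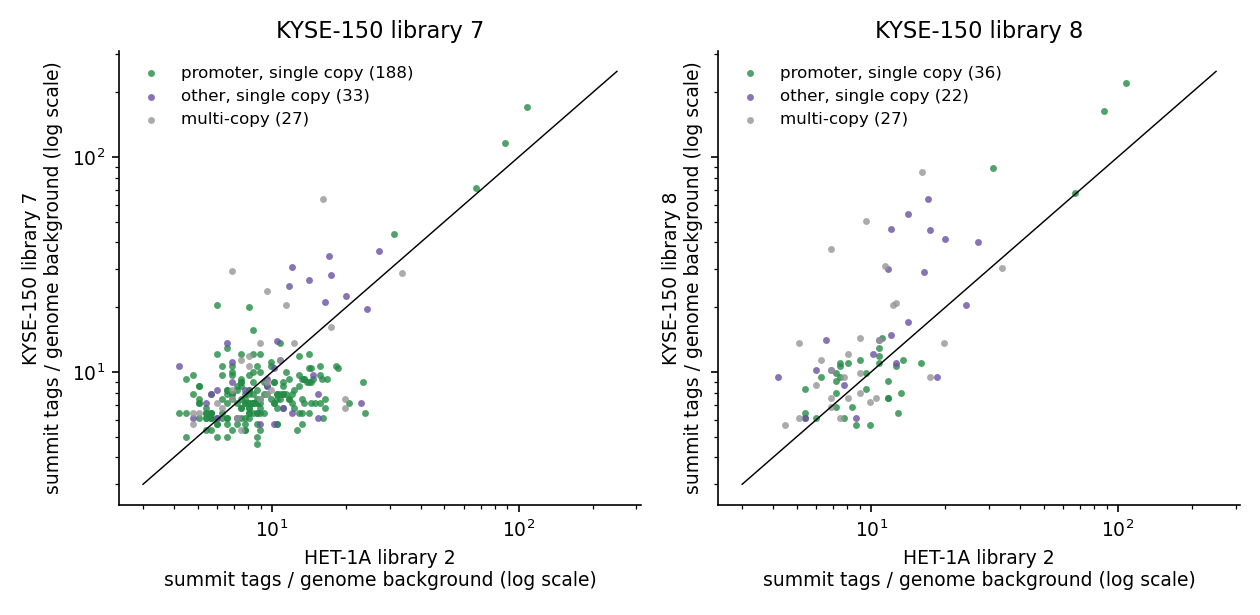
Summit tags divided by the genome background of the library (both axes on a log scale) for regions called in a KYSE-150 library (vertical) and in HET-1A library 2 (horizontal), library 7 left and library 8 right; each point is 1 region and the line marks equal levels. Single-copy promoters lay around the line, with medians of 7.50 against 8.37 for library 7 and 9.48 against 9.57 for library 8.

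By gene, 361 of 20175 protein-coding genes (1.79%) had a promoter peak in KYSE-150 library 7, 73 (0.362%) in library 8, and 19 (0.0942%) and 7130 (35.3%) in HET-1A libraries 1 and 2. Of these genes, 276 of the 361 (76.5%, 71.8 to 80.5) and 50 of the 73 (68.5%, 57.1 to 78.0) also had a promoter peak in HET-1A library 2, and 11 were shared between the KYSE-150 libraries. Genes were matched here and not sites: the strongest promoter peaks of the gene overlapped for 215 of the 276 genes and 25 of the 50. In either KYSE-150 library there were 423 genes, 104 of them with no HET-1A promoter peak. The HET-1A library 2 promoters that KYSE-150 library 7 also opened had a median level of 8.67 times background, those that library 8 opened 9.72 (50 genes), those that both opened 10.8 (7 genes), and those that neither opened 8.37.

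Of the 11 genes shared by the KYSE-150 libraries, 9 had strongest promoter peaks that overlapped. At AC026369.1 and at CDC27, a subunit of the anaphase-promoting complex, the strongest peaks differed. CDC27 still had promoter regions called in both libraries, with 29 and 46 tags (chr17:45213820-45214111) and 41 and 34 tags (chr17:45234204-45234493) in libraries 7 and 8. RIC1, which encodes part of the exchange factor that activates RAB6 at the Golgi, was the one single-copy protein-coding promoter open in both KYSE-150 libraries and in neither HET-1A library (chr9:5628647-5629091). It had 59 and 46 summit tags and ranked 47 and 75 by p-value. Its fold enrichment was only 3.04 and 2.95, because the local background was 6.70 and 5.67 times the genome level. The ETS and SP/KLF motifs of its promoter are shown above, the ETS match within the library 7 peak only.

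KDM4C, a demethylase of histone H3 lysine 9 in the same chromosome arm, was open at a start site inside the gene and had 38 and 34 tags in KYSE-150 and 36 in HET-1A library 2, with a fold enrichment of 3.05 and 3.25 against 6.17. The tags were thus alike, and the enrichment was lower in KYSE-150 beside a local background 4.21 and 3.71 times its genome level, against 1.5 in HET-1A library 2. TUBGCP5, a subunit of the gamma-tubulin ring complex on chromosome 15, showed the same pattern, with 34 and 30 tags against 30 and enrichments of 3.84 and 3.22 against 7.14. MUC5AC, a secreted gel-forming mucin, was also open at an internal start site and had 22 and 26 tags in KYSE-150 and 32 in HET-1A library 2. CDK11A, a cyclin-dependent kinase with a close paralog beside it, had 15 and 16 tags. The remaining shared genes lay in copied DNA: ANKRD30BL, REXO1L1, and TBC1D3 with TBC1D3L, which are served by a single peak of 21 and 36 tags. Reads from such copies cannot be assigned with certainty, so these gene names are uncertain, as are those of AC026369.1 and CDC27.

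Runs of raised background marked 2 further stretches of KYSE-150. On chromosome 9, between 5 and 7 Mb, library 7 had 6 peaks with a background of 2.42 to 6.70 times its genome level and library 8 had 3 peaks at 3.71 to 5.67, while the 8 peaks of HET-1A library 2 were at 1.00 to 1.5 and HET-1A library 1 had none. Besides RIC1 and KDM4C, library 7 opened the promoters of KIAA2026 with 50 tags and of ERMP1, an endoplasmic reticulum metallopeptidase, with 47 tags, and library 8 had a peak nearest INSL4, an insulin-like peptide of the placenta, with 32 tags. On chromosome 1, between 212 and 213 Mb, library 7 had 5 peaks at 5.21 to 7.57 times the genome level, library 8 had none, and the 10 peaks of HET-1A library 2 were at 1.00 to 2.07. These were PPP2R5A, a regulatory subunit of phosphatase 2A, with 57 tags, ATF3, a stress-induced AP-1 family factor, with 56, NSL1, a kinetochore protein, with 44, and LINC02771 and ENSG00000288007 with 55 and 38. The chromosome 1 stretch was thus seen in a single KYSE-150 library, whereas the chromosome 9 stretch was seen in both. A background raised over a whole stretch moved with these calls, and its part in them was not tested. Over whole lists, 27 and 24 KYSE-150 peaks had a background at least 4 times the genome level, or 4.94% and 9.27%. HET-1A libraries 1 and 2 had 20 and 1008, or 11.9% and 6.31%, so the shares overlapped. In HET-1A library 2 the neighbourhood of CCND1 (cyclin D1) was such a stretch, with 122 peaks within 1 Mb and 5 nearest to the gene at a median of 8.43 times the genome level. KYSE-150 had 1 peak within 1 Mb of CCND1 in each library and none nearest to it.

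Gene lists for the tissue were mostly without KYSE-150 promoter peaks, at a background of 1.79% of genes in library 7 and 0.362% in library 8. Of 8 squamous epithelial markers (KRT5, KRT14, KRT6A, TP63, CDH1, DSP, DSG3 and SFN) none had a peak in either KYSE-150 library, and KRT6A, DSP and SFN had one in HET-1A library 2 with 16, 21 and 29 tags. The epithelial label could thus not be checked from the KYSE-150 lists. Fibroblast (7), leukocyte (5) and endothelial (3) markers had none in any of the 4 libraries, and PECAM1, another endothelial marker, was not found in the annotation used. Even of 28 housekeeping genes, which every cell uses, library 7 had 2 and library 8 had 0, against 16 (57.1%) in HET-1A library 2. POLR2A, the large subunit of RNA polymerase II, had 20 tags in library 7 and 40 in HET-1A library 2, and EEF1A1, a translation elongation factor, had 17 in library 7 alone. A missing peak in KYSE-150 does not by itself show closed chromatin.

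**Figure D4:**
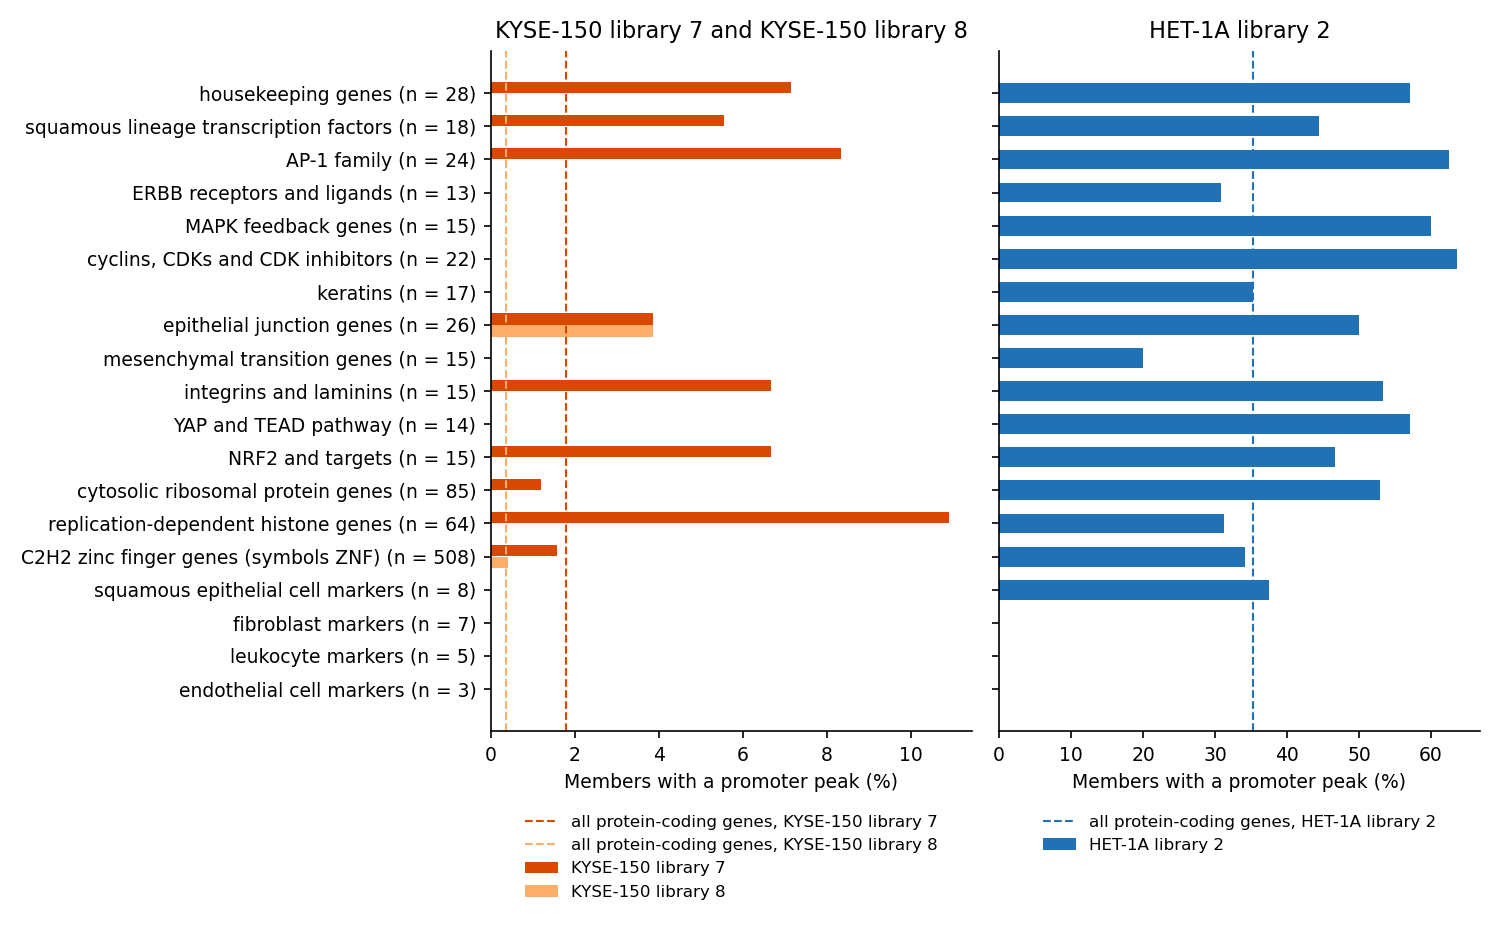
Share of the members of each gene list with a promoter peak (horizontal axis, %) in KYSE-150 libraries 7 and 8 (left) and in HET-1A library 2 (right, on another axis range), with dashed lines at the share over all protein-coding genes. Histone genes reached 10.9% in KYSE-150 library 7, and most other lists were at 0 in library 8.

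Squamous lineage factors had 1 promoter peak of 18 genes in library 7 and none in library 8, against 8 (44.4%) in HET-1A library 2. It was at KLF5, a Krüppel-like factor of basal epithelium, with 18 tags and a fold enrichment of 4.36 in library 7 and 18 tags and 4.37 in HET-1A library 2. TP63 and SOX2, the lineage regulators most often named for squamous carcinoma, had no promoter peak in any of the 4 lists. KLF4, GRHL1, GRHL3, TFAP2C, ELF3 and PAX9 were among those open in HET-1A library 2 alone.

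The AP-1 family itself had 2 of 24 promoters in library 7, 0 in library 8 and 15 (62.5%) in HET-1A library 2. ATF3 had 56 tags in library 7 against 27 in HET-1A library 2, with the lower enrichment of 2.76 against 4.29, and ATF7 had 22 against 19. FOS, FOSL1, JUN and JUNB were open in HET-1A library 2 alone, with 25 to 28 tags. EGFR had a peak of 21 tags in HET-1A library 2 alone of the 4 libraries, at the start of a shorter transcript inside the gene and not at its main promoter, and 3 peaks nearest to it. The ERBB receptors and ligands had 0 of 13 in KYSE-150 and 4 in HET-1A library 2. The MAPK feedback genes (0 of 15 against 9), cyclins, kinases and their inhibitors (0 of 22 against 14), keratins (0 of 17 against 6), YAP and TEAD genes (0 of 14 against 8) and mesenchymal genes (0 of 15 against 3) had no KYSE-150 promoter peak at all. Against the 35.3% of all genes open in HET-1A library 2, the keratins (35.3%), ERBB genes (30.8%) and mesenchymal genes (20%) were at or below the share of that library too. A count of 0 of 22 allows up to 14.9% by the Wilson interval, and a count of 0 of 13 up to 22.8%, so none of these zeros lies apart from the background of 1.79%.

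Among adhesion genes, JUP (plakoglobin, of desmosomes and adherens junctions) had 26 tags in library 7 against 45 at the same place in HET-1A library 2. PKP3 (plakophilin 3, a desmosome plaque protein) had 31 tags in library 8, at another start site than its HET-1A library 2 peak. Of 26 junction genes, 13 were open in HET-1A library 2. ITGAV, the integrin alpha V chain, had 16 tags in library 7 and no HET-1A peak, and was the 1 of 15 integrin and laminin genes open in KYSE-150, against 8 in HET-1A library 2. Of NRF2 and its targets, OSGIN1, an oxidative stress response gene, had 20 tags against 28, 1 of 15 genes in library 7 against 7 in HET-1A library 2. Of 85 ribosomal protein genes, library 7 opened RPL9 alone, with 24 tags against 24, whereas HET-1A library 2 opened 45 (52.9%). Over all genes the share was 35.3% in HET-1A library 2, 1.79% in library 7 and 0.362% in library 8. In library 7 these lists stood at 3.85% (junction), 6.67% (integrins and laminins), 6.67% (NRF2) and 1.18% (ribosomal), and each interval included 1.79%. Library 8 had 1 of 26 junction genes (3.85%, 0.682 to 18.9).

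Replication-dependent histone genes were the list furthest above the background in the full list of KYSE-150 library 7, with 7 of 64 genes (10.9%, 5.40 to 20.9) against 1.79% of all genes. At equal rank they had 5 of 64 (7.81%) and the AP-1 family 2 of 24 (8.33%), against 0.605% of all genes. Those 7 genes were served by 4 peaks, since neighbouring histone genes had start sites within 3 kb of the same peak. H2AC11 and H2BC11 shared a peak of 35 tags, H2AC12 and H2BC12 one of 30, H1-4 and H2BC5 one of 26, and H4C5, an H4 gene, had one of 28. The pair H2AC12 and H2BC12 was also open in HET-1A library 2 with 21 tags, and the other 5 genes were not. HET-1A library 2 opened 20 of the 64 (31.2%), below its own background of 35.3%, and KYSE-150 library 8 opened none, so the count was not seen in the second KYSE-150 library. The study had itself named histone genes in these libraries, so the list is not independent evidence of a direction. Zinc finger genes, a family of transcription factors with 508 members here, had 8 in library 7 (1.57%) and 2 in library 8 (0.394%), both near the background, and 173 (34.1%) in HET-1A library 2. ZNF576 had the most tags of them, 29 in library 7 against 47 in HET-1A library 2.

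Outside promoters, HET-1A library 2 alone stood apart by the AP-1 motif, and the lines overlapped, with HET-1A library 1 between the KYSE-150 libraries. Of the peaks outside promoters, 38.3% (37.3 to 39.5) of HET-1A library 2 held TGANTCA within the 200 bp around the summit, against 8.76% (17 of 194, 5.54 to 13.6) of KYSE-150 library 7, 3.68% (5 of 136, 1.58 to 8.32) of library 8 and 7.32% of HET-1A library 1. Windows of the same length 10 kb downstream of all peaks, promoter peaks included, held it in 5.12% and 4.25% of cases for KYSE-150 and 3.57% and 5.54% for HET-1A. The library 8 interval included its downstream share, and the library 7 interval began just above its own. At equal rank HET-1A library 2 had 55.7% (34 of 61), library 7 had 17.0% (9 of 53, 9.20 to 29.2) and library 8 had 4.35% (4 of 92).

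**Figure D5:**
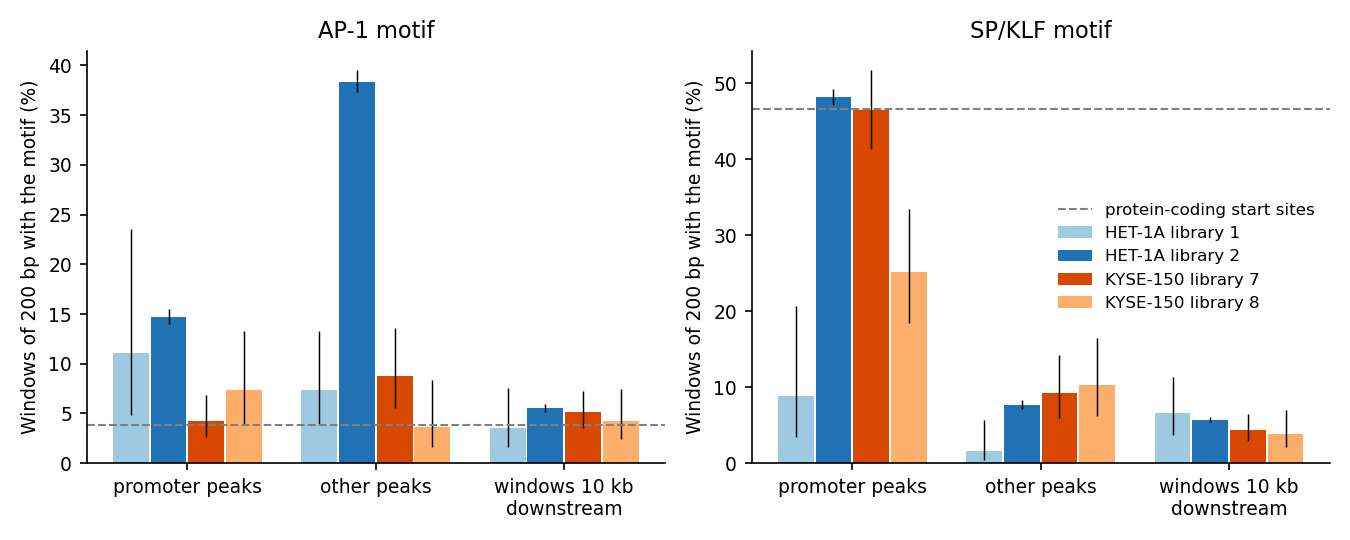
Share of 200-bp windows (vertical axis, %) that hold the AP-1 motif (left) or the SP/KLF motif (right) at promoter peaks, at other peaks and 10 kb downstream of peaks (horizontal axis) in the 4 libraries, with 95% Wilson intervals; the dashed line is the share over protein-coding start sites. The AP-1 motif stood at 38.3% in other peaks of HET-1A library 2 and below 10% elsewhere outside promoters, and the SP/KLF motif was as frequent in promoter peaks of KYSE-150 library 7 as at start sites in general.

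Among the 9 equal-rank AP-1 peaks of library 7 were introns of SEMA3E, a semaphorin guidance factor, with 28 tags and a fold enrichment of 6.25, and of CHN2, the Rac-regulating beta-chimaerin, with 36 tags and 4.12. Both were in library 7 alone, and both were chosen for printing after their values were seen. Peaks outside promoters that HET-1A library 2 shared with a KYSE-150 library held the motif in 13.3% of cases (8 of 60, 6.91 to 24.2), whereas those it did not share held it in 38.5%. Most peaks of both sets were thus without an AP-1 match, and the share was lower in the shared set. The part of multi-copy DNA in that lower share was not tested.

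At promoters the KYSE-150 libraries differed from each other. The SP/KLF motif was in 46.5% (41.3 to 51.7) of library 7 promoter peaks, close to the 46.6% of all protein-coding start sites and the 48.2% of HET-1A library 2, but in 25.2% (18.4 to 33.5) of library 8 and 8.89% of HET-1A library 1. The ETS motif was in 7.37% and 3.25% of KYSE-150 promoter peaks, against 12.1% in HET-1A library 2 and 10.1% of start sites, and the NRF1 motif in 5.10% and 2.44% against 4.89% and 3.58%. The NFY motif AGCCAAT was in 8.50% and 2.44% against 9.17% and 5.75%, and the E-box CACGTG in 4.82% and 11.4% (6.90 to 18.2) against 7.45% and 5.85%. In the 45 promoter peaks of HET-1A library 1, the ETS, NRF1 and E-box motifs were in 4.44%, 2.22% and 2.22%, and NFY was in 0 of 45, which allows up to 7.87%. Outside promoters, the CTCF core AGGNGGC was in 19.1% of library 7 and 20.6% (14.6 to 28.1) of library 8, against 9.76% and 17.2% in HET-1A libraries 1 and 2. The windows 10 kb downstream of all peaks, promoter peaks included, held it in 10.6%, 13.1%, 13.7% and 14.8%, in that order. TEAD (GGAATGT) stood outside promoters at 4.12% and 3.68% against 1.63% and 5.49% in HET-1A, and RUNX (TGTGGTT) at 4.64% and 2.94% against 5.69% and 4.48%. Base composition moved with the SP/KLF motif: the median GC content of promoter peaks was 64.5% in library 7, 60.5% in library 8, 44.5% and 62.5% in HET-1A, and 63.5% at start sites. In library 8, 30.1% of promoter peaks were multi-copy, against 10.8% in library 7, and their part in the motif shares was not tested.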

How the data were processed

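The 4 libraries were sequenced as paired 75-base reads (total depth unknown). Per the labels and the study's methods, the authors trimmed reads, marked duplicates (Picard 2.2.1), aligned to hg19 (Bowtie2 2.3.3.1), removed blacklisted regions (bedtools 2.7.1), corrected for the Tn5 offset, retained fragments shorter than 100 bp and ran the peak caller per library with MACS2 2.1.0.20160309 (q 0.05, shift -100, extension 200 bp), with no pooling. The deposited lists give a score, the fold enrichment (a ratio), the −log10 p-value and the −log10 q-value of each peak.

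From these values the summit tags and local background of a peak were solved (100% of peaks, within 0.001 in −log10 p). Overlap was at least 1 base. Annotation used GENCODE 44 on hg19 in the order promoter (3 kb either side of any start site), then UTR, exon, introns (the first and the others), 3 kb downstream, and distal intergenic. Intervals are Wilson 95%. They cover counting error only. Motifs were counted in 200 bp around summits. Equal rank means the 168 smallest p-values of each list. The q-values reached 0.0411 and 0.0246 in KYSE-150. No test between lines was run with 2 libraries each. The solved tags and background, merged regions, promoter windows and motif counts were tested on simulated data (390, 200, 200 and 270 cases, with 100% recovered). Python 3.11.15, pandas 2.3.3, scipy 1.17.1 and samtools 1.23.1 were used.

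Named genes were the 10 (KYSE-150) or 5 (HET-1A) smallest-p peaks of each list, genes with a promoter peak in both KYSE-150 libraries, the 10 (5) highest mean fold enrichments of the regions found in both libraries of 1 line alone, list members with a KYSE-150 promoter peak, genes nearest to 3 or more peaks, regions in all 4 libraries, EGFR and CCND1. Genes outside it (the HET-1A members of lists, stretches on chromosomes 1 and 9, the intron peaks) were chosen after their values were seen. Members and lists were chosen with earlier results of these data known. The alternatives tried were equal rank, 50% overlap, promoter width, start sites, motif window, single-copy peaks and leaving out each library. Repeats were to be read from masked bases, which the reference copy does not mark, so multi-copy 31-mers stand in their place.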

Additional observations from a re-analysis of the deposited data

How the results depend on the processing

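Of 756 values recomputed under an alternative, 588 kept their size or direction, 166 moved and 2 changed sign. Requiring single-copy peaks (added after seeing the data) lowered the regions in both KYSE-150 libraries from 62 to 34 and those without a HET-1A peak from 17 to 6, and counting a peak in either library gave 443. Leaving out single libraries gave 22 to 293 for the latter. The 19 regions of both HET-1A libraries without KYSE-150 became 0 at equal rank, 8 at 50% overlap, 15799 with either library and 19 to 15683 with a library left out. Overlap of KYSE-150 library 7 with HET-1A library 2 went from 45.3% to 7.74% at equal rank and 29.3% at 50% overlap, that of library 8 from 33.6% to 6.55% and 21.2%, and that of library 7 with library 8 from 11.3% to 27.4% at equal rank. The promoter share of library 7 was 57.2% within 1 kb, 50.1% for protein-coding start sites and 68.5% at equal rank, and that of library 8 was 33.6% and 26.6% for the first pair. The difference in promoter share ranged from 2.90 to 29.2 points with a library left out. The difference in distal intergenic share, -4.04 points, reversed to 0.595 at equal rank and to 1.80 without HET-1A library 1 (range -9.87 to 1.80). With a library left out (added after seeing the data), the difference in intron share ranged from -20.5 to -7.65 points and that in first introns from -13.1 to -4.56. The AP-1 share of all library 7 peaks, 5.85%, was 8.33% at equal rank and 8.76% outside promoters, and that of library 8, 5.41%, was 8.88% over whole peaks. List genes of library 7 fell from 24 to 11 at equal rank, and those of library 8 rose from 3 to 12 with the nearest start site at any distance. The multi-copy share of libraries 7 and 8 was 2.74% and 6.56% where at least 90% of 31-mers were repeated, and 18.5% and 39.3% at equal rank. At least 2 times the genome background held for 120 and 109 peaks. For these changes the cause was not tested, beyond that shorter lists hold fewer peaks. The alternatives on masked repeats were not run, since the reference copy marks none. No paired analysis was possible because the library numbers of the lines (1 and 2, 7 and 8) are not shared and no test between lines was run. Depth, known only through a background of 1.88 to 3.34 tags, limits what an absent peak says.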
